A study of Mus musculus with 4 samples.

Results

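The genes described here are *Lefty1*, *Id3*, *Id4*, *Msx2* and *Tgfbi*, 5 genes that respond to BMP, Nodal or TGF-β signals, out of 920 genes in the authors' deposited table of genes they had called as changed by *Rhox6* knockdown. They were picked by gene name, with their difference between these libraries already known, so their values are given as a description and no test of them is reported. The RNA came from 46C mESCs, a mouse embryonic stem cell line, infected with *scramble* control or *Rhox6* shRNA lentivirus, grown for 24 h in medium with serum and lysed in Trizol. There were 2 libraries in each group. Per the study's methods, shRNA was delivered in pLKO.1 lentivirus followed by drug selection, and 2 hairpins against *Rhox6* are named without saying which was sequenced. The table heads its column of knockdown means Rh6_Sh1, a name like that of the study's hairpin sh#1, and the labels of the libraries give no hairpin. Separate cultures are not mentioned for the libraries within a group, so p-values and SDs may measure technical spread only. For each gene and library the table holds a normalized expression level with 2 decimals in a unit that is not named, and no read counts, so the depth behind each level is unknown. Whether the levels were divided by gene length is not stated either, and levels of different genes are therefore not ranked against each other.

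Ligands of the TGF-β superfamily bind pairs of serine/threonine kinase receptors, which phosphorylate SMAD proteins that enter the nucleus with SMAD4. BMPs act mainly through SMAD1, SMAD5 and SMAD9, whereas Nodal, activin and TGF-β act through SMAD2 and SMAD3, with FOXH1 as a partner at many Nodal targets. In mESCs, BMP in serum induces Id genes, whose products hold back neural differentiation, and Nodal induces its own secreted antagonists, the Lefty proteins.

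Levels of all 5 genes were higher in *Rhox6* shRNA mESCs than in *scramble* mESCs, and for each gene both *Rhox6* shRNA libraries lay above both *scramble* libraries. Of all 920 listed genes, 54.1% were separated in this direction and 44.2% in the opposite one, and since the table holds only genes called as changed, nothing is read from 5 of 5. Mean levels differed by a ratio of 2.16 for *Lefty1* and 2.39 for *Id3*, the genes whose level was above 50 in every library. It was 3.46 for *Tgfbi*, 3.62 for *Id4* and 3.63 for *Msx2*, which were below 4 in both *scramble* libraries. The median ratio over the 504 listed genes with a higher mean level in *Rhox6* shRNA cells was 2.88, so *Lefty1* and *Id3* were below it and the other 3 genes above it.

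*Lefty1* encodes a secreted antagonist that is induced by Nodal and limits Nodal signaling. It is a gene of 4 exons on chromosome 1 of GRCm38, spanning 180935022 to 180938400 (+ strand). In *scramble* cells its level was 147.03 in replicate 1 and 149.37 in replicate 2, and in *Rhox6* shRNA cells it was 335.97 and 304.29. The *scramble* libraries were nearly equal, and the *Rhox6* shRNA libraries differed more from each other, with *Rhox6* shRNA replicate 1 the highest. The means were 148 ± 1.65 and 320.1 ± 22.4 (SD, n = 2 each). Between single libraries the ratio was at least 2.04 and at most 2.29. The difference of log2(level + 1), *Rhox6* shRNA minus *scramble*, was 1.10 (standard error 0.061).

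*Id3* encodes a helix-loop-helix protein without a DNA-binding region, which is induced by BMP and keeps basic helix-loop-helix factors from binding DNA. The gene spans 136143497 to 136145755 of chromosome 4 (GRCm38, + strand). The *scramble* levels were 53.53 and 58.62, and the *Rhox6* shRNA levels were 138.25 and 129.70. The libraries within each group differed little beside the gap between the groups. The means were 56.1 ± 3.60 and 134 ± 6.05 (SD, n = 2 each). The ratio of single libraries ranged from 2.21 to 2.58, and the difference of log2(level + 1) was 1.24 (standard error 0.072).

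*Id4*, which spans 48261228 to 48266026 of chromosome 13 (GRCm38, + strand), encodes a protein of the same family, best known from the developing nervous system. It was measured at 0.92 and 0.88 in *scramble* cells and at 3.19 and 3.33 in *Rhox6* shRNA cells. The level was thus below 1 in both *scramble* libraries and above 3 in both *Rhox6* shRNA libraries. The means were 0.90 ± 0.028 and 3.26 ± 0.099 (SD, n = 2 each). The ratio of single libraries ranged from 3.47 to 3.78, without overlap with that of *Id3*, while the difference of log2(level + 1) was 1.16 (standard error 0.12) and close to that of *Id3*. *Id1* and *Id2*, the other Id genes, are not in the table and were not analysed here.

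*Msx2* encodes a homeodomain repressor that BMP induces in many embryonic tissues. It is a gene of 2 exons on chromosome 13 of GRCm38, spanning 53466884 to 53473074 (- strand). Its *scramble* levels were 0.45 and 0.38, against 1.59 and 1.42 after *Rhox6* knockdown. These are low values with 2 decimals, and 220 of the 920 listed genes were, like *Msx2* and *Id4*, below 1 in both *scramble* libraries. The means were 0.415 ± 0.049 and 1.51 ± 0.12 (SD, n = 2 each). The ratio of single libraries was spread most widely of the 5 genes, from 3.16 to 4.18. The difference of log2(level + 1) was 0.82 (standard error 0.11).

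*Tgfbi* encodes an extracellular matrix protein that binds integrins and was named for its induction by TGF-β. Its annotated span on chromosome 13 of GRCm38 is 56609523 to 56639562 (+ strand), with 17 exons in its protein-coding transcript. The level went from 3.59 and 3.42 in *scramble* cells to 12.16 and 12.07 in *Rhox6* shRNA cells. The libraries of each group were close, and *Tgfbi* had the narrowest range of single-library ratios of the 3 genes with a ratio of at least 3, from 3.36 to 3.56. The means were 3.50 ± 0.12 and 12.1 ± 0.064 (SD, n = 2 each). Its difference of log2(level + 1), 1.54 (standard error 0.10), had rank 58 of the 920 listed genes, counted from the largest rise. This was the first of the 5 genes.

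**Figure D1:**
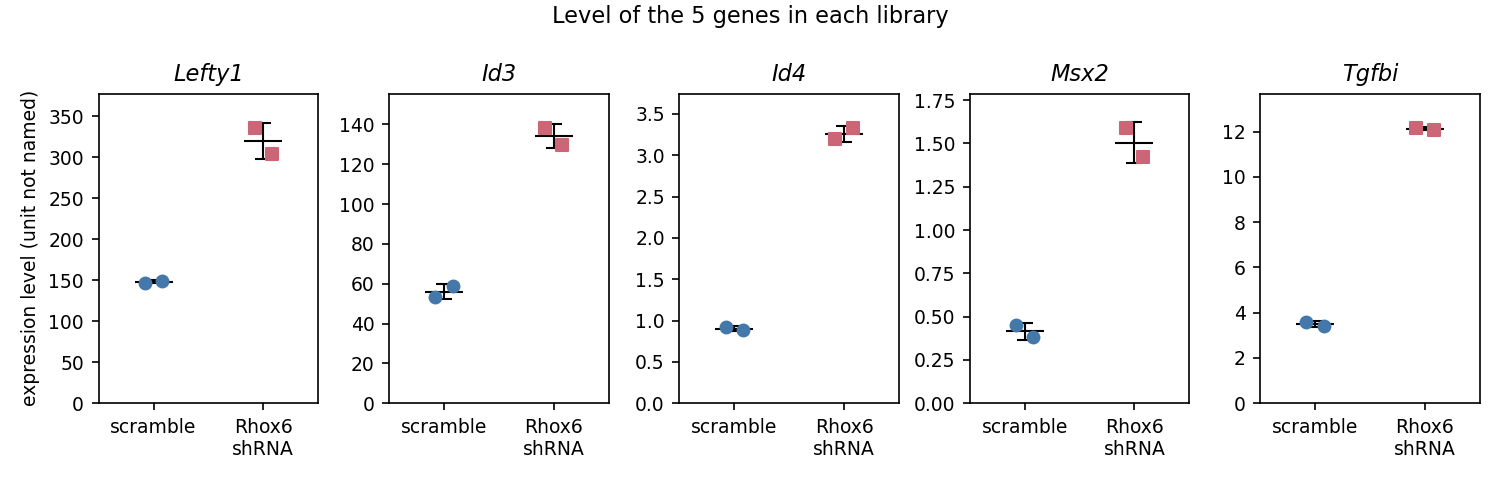
Expression level (linear axis from 0, unit not named) of each gene in the 2 *scramble* libraries (circles) and the 2 *Rhox6* shRNA libraries (squares), with the group mean and SD in black. In each panel both squares lie above both circles, with *Lefty1* near 148 and 320.1 on average and *Msx2* near 0.415 and 1.51.

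The order of the 5 genes depended on the scale of the difference. Ranks run from the largest rise to the largest fall, and 504 of the 920 listed genes had a higher mean after knockdown. By the ratio of mean levels, *Msx2*, *Id4* and *Tgfbi* had ranks 157, 159 and 179, followed by *Id3* at 367 and *Lefty1* at 443. By the difference of log2(level + 1), *Tgfbi* at rank 58 was followed by *Id3* at 145, *Id4* at 179, *Lefty1* at 209 and *Msx2* at 357. Adding 1 compresses the difference of genes with levels near or below 1, so *Msx2* was first on the ratio and last on this scale. With a pseudocount of 0.1 in place of 1, the log2 difference of *Msx2* was 1.64 and that of *Id4* 1.75, and with 5 they were 0.26 and 0.49. The differences of *Lefty1* and *Id3* stayed between 1.08 and 1.26 over these 3 pseudocounts. Within each gene, the SD of log2(level + 1) within groups was between 1.79% and 7.36% of the difference between the groups.

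**Figure D2:**
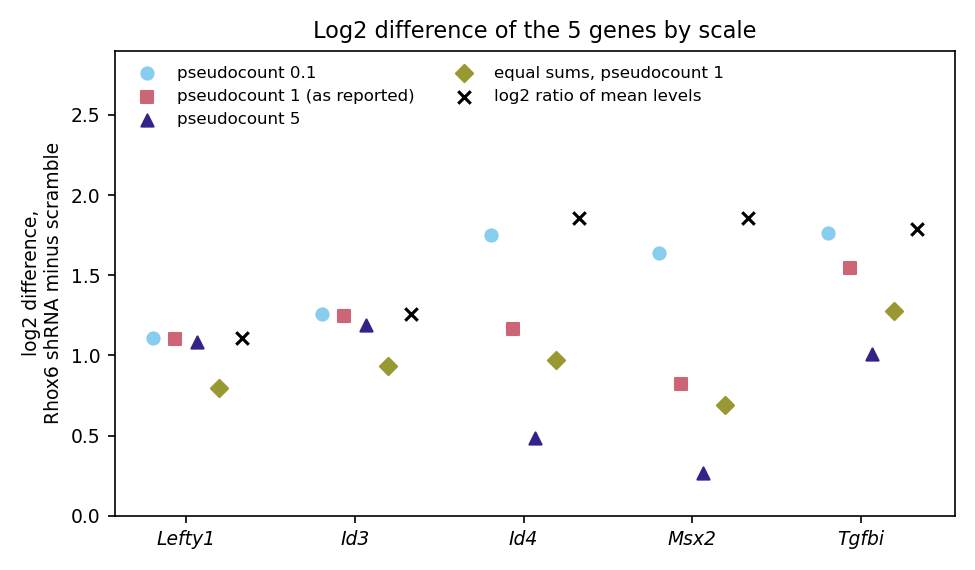
Log2 difference of each gene, *Rhox6* shRNA minus *scramble*, with pseudocounts of 0.1, 1 and 5, after scaling every library to the same sum, and as the log2 ratio of the mean levels (cross). The symbols of *Lefty1* and *Id3* for the pseudocounts lie close together, while those of *Msx2* spread from 0.26 to 1.64.

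**Figure D3:**
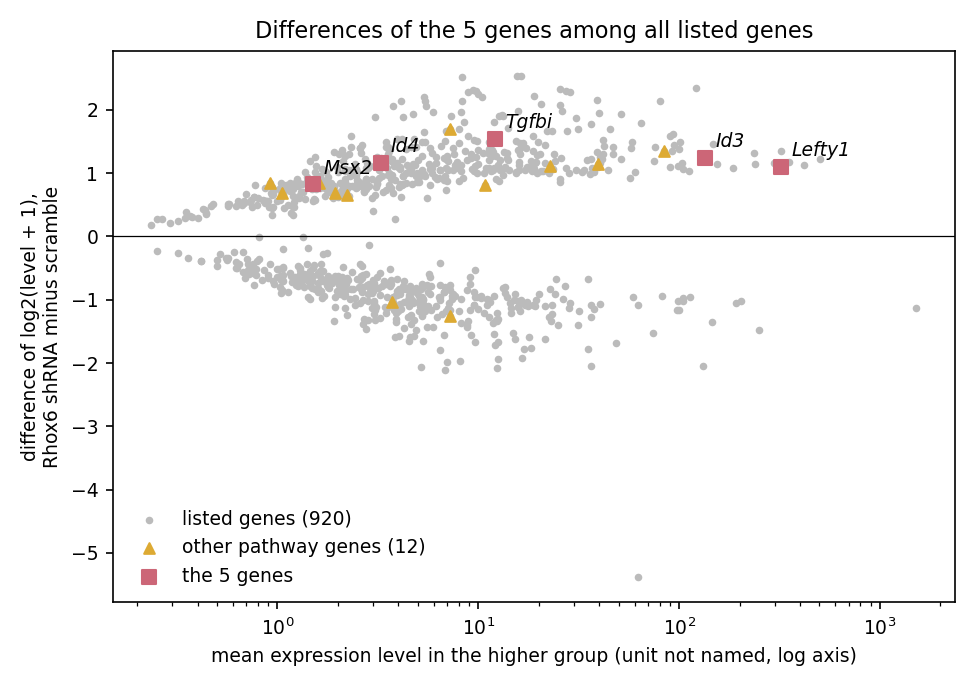
Difference of log2(level + 1), *Rhox6* shRNA minus *scramble*, against the mean level in the higher group (log axis) for the 920 listed genes (grey), the 5 genes (squares) and the 12 other pathway genes (triangles). The table holds called genes only and few grey points lie near 0, and the 5 genes lie within the upper cloud, from 0.82 for *Msx2* to 1.54 for *Tgfbi*.

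Each gene's profile over the 4 libraries was compared with that of every other listed gene by the Euclidean distance between centred log2(level + 1) values. Libraries within a group differed little for the 5 genes, so a small distance mostly means a group difference of similar size. That difference is what the genes were listed for, and no shared regulation is read from a neighbour. *Id4* was nearest to *Sntg1* (distance 0.00889), then to *Gm48493* and *Spp1*. *Sntg1*, which encodes a syntrophin, was at 151.23, 148.39, 329.54 and 340.72 in *scramble* replicates 1 and 2 and *Rhox6* shRNA replicates 1 and 2, so its ratio was 2.24 against 3.62 for *Id4*, and the likeness is one of the log2(level + 1) scale. *Lefty1* was nearest to *Ccn2* (0.0583), *Tle3* (0.0599) and *Fam169b* (0.066). *Id3* was nearest to *Notum* (0.0402), the gene of a secreted Wnt inhibitor, followed by *Zadh2* and *Hormad2*. *Msx2* was nearest to *Nfib* (0.045), *St8sia1* and *Sh2d4b*, and *Tgfbi* to *Lrrn2* (0.0514), *Dusp27* and *Jam2*. Among the 5 genes themselves the smallest distance was that between *Lefty1* and *Id4* (0.152) and the largest that between *Msx2* and *Tgfbi* (0.721). This order, too, belongs to the log2(level + 1) scale. The ratios of mean levels were 2.16 and 3.62 for *Lefty1* and *Id4*, but 3.63 and 3.46 for *Msx2* and *Tgfbi*.

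The sequence around the start of the genes was taken from the RefSeq promoter table for GRCm38.p6, with 250 bases before and 50 after each start, which matched 4 of the 5 genes and had no entry for *Lefty1*. Each window was searched on both strands for GGCGCC, a GC-rich SMAD element, for CAGAC, the SMAD box, for the SMAD palindrome GTCTAGAC, for the FOXH1 element AATNCACA and for TAATTA, a core shared by many homeodomain proteins. Over the 32851 windows of the table, 11.9% held GGCGCC, 49.6% CAGAC, 0.213% GTCTAGAC, 3.6% AATNCACA and 5.29% TAATTA. None of these motifs is contained in another, though matches of different motifs can share bases at their ends. The stretches below run 5′ to 3′ on the strand of the gene, and capitals mark the matches, with CAGAC written GTCTG where it is on the other strand.

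*Id4* and *Tgfbi* each held 1 GGCGCC, which lay 148 bases before the RefSeq start of *Id4* and 77 bases before that of *Tgfbi*. They are shown up to the first annotated start, and the 250 bases of *Id4* had a GC content of 75.6%. *Tgfbi* also held CAGAC at 239 and 85 bases before its start, both on the other strand. The matches describe letters only, and binding at them was not measured in these data.
Id4, chr13:48260866-48261115, + strand: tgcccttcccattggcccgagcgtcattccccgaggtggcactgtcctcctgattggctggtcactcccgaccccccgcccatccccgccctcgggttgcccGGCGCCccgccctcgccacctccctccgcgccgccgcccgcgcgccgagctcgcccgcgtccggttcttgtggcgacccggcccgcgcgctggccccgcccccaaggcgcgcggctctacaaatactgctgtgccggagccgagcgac
Tgfbi, chr13:56609336-56609522, + strand: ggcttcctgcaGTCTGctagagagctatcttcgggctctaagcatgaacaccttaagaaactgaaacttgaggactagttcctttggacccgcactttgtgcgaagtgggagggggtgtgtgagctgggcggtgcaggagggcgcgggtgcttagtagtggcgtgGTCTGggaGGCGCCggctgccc

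*Id3* held CAGAC at 167 bases before its RefSeq start and, on the other strand, at 68 bases, and none of the other 4 motifs. *Msx2* held TAATTA at 187 bases before its start and none of the SMAD or FOXH1 letters. For both genes GENCODE places the start farther upstream than RefSeq, so these windows lie within the GENCODE gene, and 30 bases around each match are shown.
Id3, chr4:136143642-136143671, + strand: ctgtcctcggcgtCAGACcagcctaaggaa
Id3, chr4:136143741-136143770, + strand: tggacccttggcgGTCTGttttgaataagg
Msx2, chr13:53472950-53472979, - strand: tgactgctcctgTAATTAactcctaattta

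Other genes of the BMP, Nodal and TGF-β pathways were sought with 10 lists of 138 symbols in all. These lists also held the gene families of the 5 genes and partners of Id proteins. Of the 138 symbols, 17 are in the table, the 5 genes included. For these, limma was run on log2(level + 1) of all 920 listed genes with Benjamini-Hochberg adjustment. With 0.05 as the limit for the adjusted p, 53.7% of them were called higher and 42.9% lower after knockdown. Of the 12 pathway genes other than the 5, 10 rose and 2 fell, and the libraries of the groups overlapped for none of the 12. They overlapped for only 15 of all 920 listed genes, so nothing is read from this. The median log2 difference of the 12 was 0.83, against 0.56 over all 920 listed genes, and both medians mix genes that rose and fell. Over the 504 listed genes with a higher mean after knockdown, the median was 1.05. The authors had already called every listed gene on these libraries. Neither these counts nor the adjusted p-values below therefore add independent support for a change or its direction. The other 121 symbols are not in the table and were not analysed here.

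Among ligands and receptors, *Gdf3*, which encodes a ligand of the Nodal branch made by pluripotent cells, was at 32.75 and 32.03 in *scramble* and at 83.68 and 85.25 in *Rhox6* shRNA libraries. It rose by a log2 difference of 1.36 (standard error 0.061, limma adjusted p = 0.000149), with libraries of each group nearly equal. *Bmp8a*, a BMP ligand gene, rose from 0.82 ± 0.085 to 1.94 ± 0.021 (SD, n = 2 each). *Eng*, which encodes the coreceptor endoglin, was at 17.4 ± 1.00 in *scramble* and rose to 39.7 ± 3.17 (SD, n = 2 each). In all, these were 1 of 10 ligands of the Nodal, activin and TGF-β branch, 1 of 16 BMP ligands and 1 of 20 receptors and coreceptors.

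Of 20 antagonists, 3 were listed, and they went both ways. Beside *Lefty1*, *Fst*, which encodes the activin-binding protein follistatin, was at 1.62 and 1.44 in *scramble* and at 8.29 and 6.18 in *Rhox6* shRNA libraries, with a log2 difference of 1.69 (standard error 0.17, limma adjusted p = 0.000715). Its relative *Fstl3*, whose product also binds activin, was at 4.29 and 3.13 in *scramble* and at 1.07 and 1.51 in *Rhox6* shRNA libraries. *Fstl3* therefore fell, with a log2 difference of −1.04 (standard error 0.19, limma adjusted p = 0.00384), while *Lefty1* and *Fst* were higher. Of 18 SMADs, cofactors and intracellular inhibitors, only *Pmepa1* was listed, which encodes a TGF-β-induced inhibitor of SMAD signaling. It rose from 5.71 ± 0.071 to 10.8 ± 0.042 (SD, n = 2 each), a ratio of 1.89.

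Of 16 genes for ligand processing and for the matrix that stores latent ligands, 4 were listed. *Ltbp3*, whose product binds latent TGF-β, fell, from 5.47 and 8.93 to 1.83 and 2.97. The *scramble* libraries of *Ltbp3* differed widely, and without *scramble* replicate 2 it did not pass (log2 difference −0.95, limma adjusted p = 0.0517). The fibrillin genes *Fbn1* and *Fbn2* rose, to 2.21 ± 0.31 from 1.03 ± 0.042 and to 1.60 ± 0.46 from 0.45 ± 0.17 (SD, n = 2 each). *Fbn2* did not pass without *scramble* replicate 2 either (log2 difference 0.72, limma adjusted p = 0.0548). *Tll1*, which encodes a protease that cleaves the BMP antagonist chordin, rose from 0.275 ± 0.092 to 1.05 ± 0.035 (SD, n = 2 each).

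Of 14 BMP targets, *Id3*, *Id4*, *Msx2* and *Tbx20* were listed, and of 17 targets of Nodal and TGF-β, *Lefty1*, *Tgfbi*, *Ccn2* and *Pmepa1*. *Ccn2*, which encodes a matrix-associated protein that TGF-β induces, went up from 9.91 ± 0.064 to 22.7 ± 2.58 (SD, n = 2 each). *Tbx20*, a T-box gene of the developing heart, was at 0.02 and 0.07 in *scramble* and at 1.27 and 0.56 in *Rhox6* shRNA libraries. The *Rhox6* shRNA libraries of *Tbx20* were more than a factor of 2 apart, and the gene did not pass without *scramble* replicate 1 or 2 (limma adjusted p = 0.0767 or 0.0654). Within the gene families of the 5 genes, no other member is in the table, nor is any of 13 basic helix-loop-helix genes listed as partners of Id proteins.

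**Figure D4:**
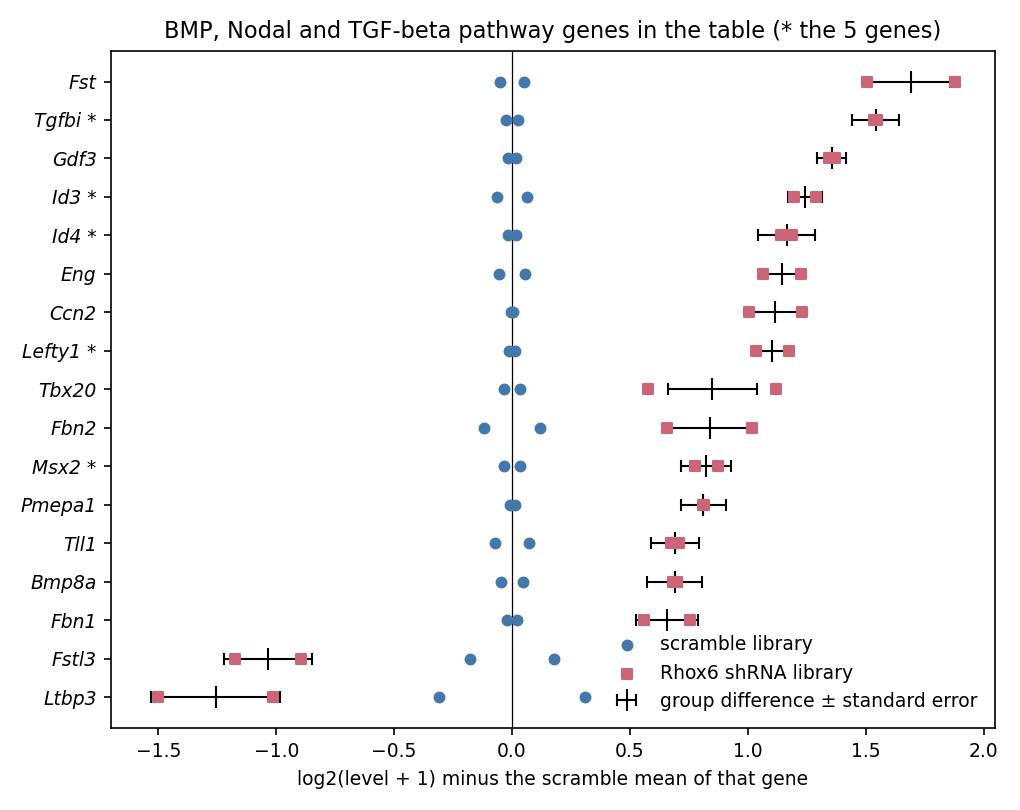
Log2(level + 1) of the 17 listed pathway genes in each library, minus the *scramble* mean of that gene, with *scramble* libraries as circles, *Rhox6* shRNA libraries as squares and the group difference with its limma standard error in black. Asterisks mark the 5 genes, and *Fstl3* and *Ltbp3* are the only genes of the plot whose squares lie to the left of the circles.

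Markers of cell types were sought in the same table, which can show them only where they had been called. Of 10 mESC markers, *Nanog* and *Klf4* were listed and rose. Of 7 early neural markers, *Sox1*, *Pax6* and *Sox3* were listed and rose. Their mean levels were 0.54, 0.325 and 1.41 in *scramble* and 1.76, 2.265 and 4.085 in *Rhox6* shRNA libraries. Of 9 primitive endoderm markers, *Gata6*, *Dab2* and *Cubn* were listed and fell. Mean levels of these 3 were 2.32, 18.265 and 8.145 in *scramble* and 0.87, 4.71 and 1.345 in *Rhox6* shRNA libraries. Of 10 fibroblast markers, only *Twist1* was listed, and its level was 0.97 to 1.09 in *scramble* and 3.06 to 3.37 in *Rhox6* shRNA libraries. None of these listed markers was at 0 in any group, and their part in the levels of the 5 genes was not tested. In bulk RNA, more cells that express a gene and more RNA per cell cannot be told apart. *Rhox6* itself is not in the table and was not analysed here, so the labels were not checked by the targeted gene.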

How the data were processed

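RNA-seq libraries of 46C mESCs, 2 *scramble* and 2 *Rhox6* shRNA, were grouped by their labels. The authors deposited, for 920 genes, a normalized signal in each library, without naming its unit, and the mean signal per group. The authors' deposited fold change (a ratio), its log2 value, p-value and adjusted p-value were not used. Bowtie 0.12.2 and mm9 are named, without a role, in the submitters' processing notes, and the counter is not given in the sources used here. Levels were not scaled further.

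Differences of log2(level + 1) and their standard errors came from limma (version 3.58.1, R 4.3.3) with its trend option, and p-values were adjusted over the 920 genes by the Benjamini-Hochberg method. The 5 genes, the gene lists and the alternatives were chosen with earlier results of these data known. Named are the 5 genes, every listed gene of the pathway lists, the listed cell type markers and, for each of the 5, the 3 genes with the nearest profile. A gene originally on the pathway lists is not reported here and was taken out of their counts. The threshold for a pathway gene was 0.05. Alternatives were other pseudocounts, a filter on low levels, equal sums, the replicate number as a block, no trend and leaving out each library. Positions are those of GENCODE M21 (GRCm38), which is not the build of the processing notes, and were used for annotation only.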

Additional observations from a re-analysis of the deposited data

How the results depend on the processing

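The size of the difference depended on the pseudocount and on the scaling. With pseudocounts of 0.1 and 5, the log2 difference was 1.75 and 0.49 for *Id4*, 1.64 and 0.26 for *Msx2*, and 1.76 and 1.01 for *Tgfbi*. After scaling each library to the same sum over the listed genes, it was 0.80 for *Lefty1*, 0.94 for *Id3*, 0.97 for *Id4*, 0.69 for *Msx2* and 1.28 for *Tgfbi*, and the ratios of mean levels were 1.74 to 2.92. That scaling is set by genes selected for their change, whose levels summed to between 9586 and 11973 per library. It moved the median log2 difference of all listed genes, which went both ways, by −0.12. The differences of all 5 genes moved more. Before scaling they were 1.10 for *Lefty1*, 1.24 for *Id3*, 1.16 for *Id4*, 0.82 for *Msx2* and 1.54 for *Tgfbi*. The ratio of mean levels shrank by a like factor for *Lefty1*, from 2.16 to 1.74, and for *Id4*, from 3.62 to 2.92. When 1 library was left out, 1 or 2 pathway genes were called lower, since *Ltbp3* was lost without *scramble* replicate 2. With the replicate number as a block, 896 of the listed genes were called against 889 without it. Same-numbered libraries did not deviate together (correlation −0.044 over 920 genes), so the numbers were not taken as pairs. Without a unit or read counts, the precision of low levels such as those of *Msx2* is unknown.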

Other observations

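*Id4*, *Msx2* and *Tgfbi* lie within 8.38 Mb of chromosome 13, and the listed genes between them went both ways. The interval from the start of *Id4* to the end of *Tgfbi* holds 9 listed genes of 213 annotated ones, against 919 of 55450 over all chromosomes. The 9 include *Id4*, *Msx2* and *Tgfbi*, so nothing is read from this share. Beside these 3 genes, which set the interval, the mean level was higher for 2 and lower for 4 of the other 6 after knockdown. *Gadd45g*, a gene of the response to stress, had a ratio of mean levels of 2.30, and *Diras2* was at 0.01 and 0.08 in *scramble* and 0.30 and 0.23 in *Rhox6* shRNA libraries. *Card19*, *Gm2762*, *Sncb* and *Unc5a* were lower. *Gm2762*, the listed gene next to *Msx2*, was at 2.85 and 5.02 in *scramble* and at 1.61 and 2.50 in *Rhox6* shRNA libraries, opposite to *Msx2*. *Sncb*, which encodes a synuclein, had a ratio of 0.0913. Over the whole of chromosome 13, 20 of 29 listed genes other than these 3 had a higher mean level, which is 69% against 54.5% of the 914 listed genes with a position, the 5 genes left out. These genes were looked up after the positions of the 5 genes had been seen, and no test was made.

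*Tgfb1i1*, named here after its values were seen since it was on none of the lists, encodes a focal adhesion adaptor first found as a gene induced by TGF-β. Its level was 1.25 and 0.97 in *scramble* and 4.58 and 4.69 in *Rhox6* shRNA libraries, a ratio of mean levels of 4.18, above that of each of the 5 genes. Other genes linked to TGF-β but on none of the pathway lists were not searched for. The rise of *Tgfb1i1* therefore says nothing about the direction of such genes.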
